A study of Homo sapiens with 6 samples.

Results

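The 10 genes of the YAP/TAZ-TEAD pathway examined here were the transcriptional coactivators YAP1 and WWTR1 (which encodes TAZ), the DNA-binding factors TEAD1 and TEAD4, the kinases LATS1 and LATS2, and the target genes CCN1, CCN2, ANKRD1 and AMOTL2. They were chosen by symbol, and each matched 1 of the 60664 gene rows of the count table, so 10 of 60664 rows are described. CCN1 and CCN2 were formerly named CYR61 and CTGF. The cells were U-2 OS, an osteosarcoma line labelled polyploid, and their mRNA was read in 3 libraries after transfection of a control siRNA (siCTRL) and 3 libraries after transfection of siRNA against SFPQ (siSFPQ), a nuclear RNA- and DNA-binding protein. Both groups thus carried a transfected siRNA, at 30 nM in the labels, and all libraries came from this 1 line. The study describes the replicates as biological, and the labels name no culture or day for them.

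In the Hippo pathway, the kinases STK3 and STK4 activate LATS1 and LATS2, which phosphorylate YAP and TAZ and keep them out of the nucleus. When the kinases are inactive, YAP and TAZ enter the nucleus, bind TEAD factors and switch on genes of growth, adhesion and the cytoskeleton, among them CCN1, CCN2, ANKRD1 and AMOTL2. LATS2 and AMOTL2 are both targets and inhibitors of YAP and TAZ, which makes a negative feedback loop, and YAP1 is often active in osteosarcoma. Most of this control acts on the proteins, through phosphorylation and localization, which RNA counts do not measure.

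Total counts per library ranged from 43469321 to 47119203. SFPQ itself had between 21753 and 23139 counts in siCTRL and between 3140 and 3863 in siSFPQ, a log2 fold change of -2.73 with a standard error (SE) of 0.05. Of the 8 listed osteoblast-lineage markers, RUNX2, COL1A1, SPARC, ALPL and SPP1 were over 3 counts in siCTRL, whereas SP7, IBSP and BGLAP were at 3 counts or fewer in every siCTRL library. The summed level of the 8 markers ranged from 3130 to 3310 TPM in siCTRL and from 2610 to 2720 TPM in siSFPQ. SPP1, which encodes osteopontin, fell to 39.8% of siCTRL (adjusted p = 1.08e-15 by edgeR), COL1A1 to 78.3% (adjusted p = 3.15e-10) and SPARC to 89.0% (adjusted p = 6.7e-05), while RUNX2 (104.2%) and ALPL (94.6%) did not pass. BGLAP had 0, 0 and 1 counts in siCTRL and 5, 6 and 6 in siSFPQ. The leukocyte markers PTPRC, CD3E and CD14 summed to at most 0.537 TPM (a level per exon length, scaled to one total in every library) and the endothelial markers PECAM1, CDH5 and VWF to at most 2.94 TPM. The 4 epithelial markers EPCAM, CDH1, KRT8 and KRT18 were all over 3 counts in both groups, and their sum ranged from 281 to 299 TPM in siCTRL and from 648 to 694 TPM in siSFPQ, carried by KRT8 and KRT18. The part of these marker changes in the results below was not tested.

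SFPQ knock-down was accompanied by a marked loss of both coactivator transcripts, small falls of both TEAD transcripts, falls of CCN1 and CCN2, and a rise of LATS1, while ANKRD1, LATS2 and AMOTL2 stayed between 94.1% and 102.5% of siCTRL. With a threshold of 0.05 on the adjusted p (quasi-likelihood test of edgeR over 29022 genes), 7 of the 10 genes were lower and 1 was higher in siSFPQ, and LATS2 and AMOTL2 did not pass. Among all genes tested, 22.1% were lower and 22.4% were higher at that threshold. Since a test is more sensitive for abundant genes, and the least abundant of the 10 had a mean of 45 CPM (counts scaled by library total), the genes with a mean of at least 10 CPM are the closer background. Of those 10216 genes, 38.8% were lower and 31.4% were higher. The median log2 fold change of the 10 genes was -0.28, against 0.02 for all genes tested and -0.03 for the abundant ones. With library size alone in place of TMM scaling, 6 of the 10 genes were lower and 2 were higher.

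A larger change was rare. Only YAP1 among the 10 genes passed the thresholds of the study's methods, an adjusted p under 0.05 with a log2 fold change beyond 1.5, and it lay close to them. A fall of that size was found in 4.77% of all genes tested and in 3.06% of the abundant ones. The normalized counts (counts scaled by the effective size of each library) of siSFPQ and siCTRL did not overlap in 8 of the 10 genes, compared with 52.3% of all genes tested and 74.8% of the abundant ones, so a separation of the libraries was common in this experiment.

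**Figure D1:**
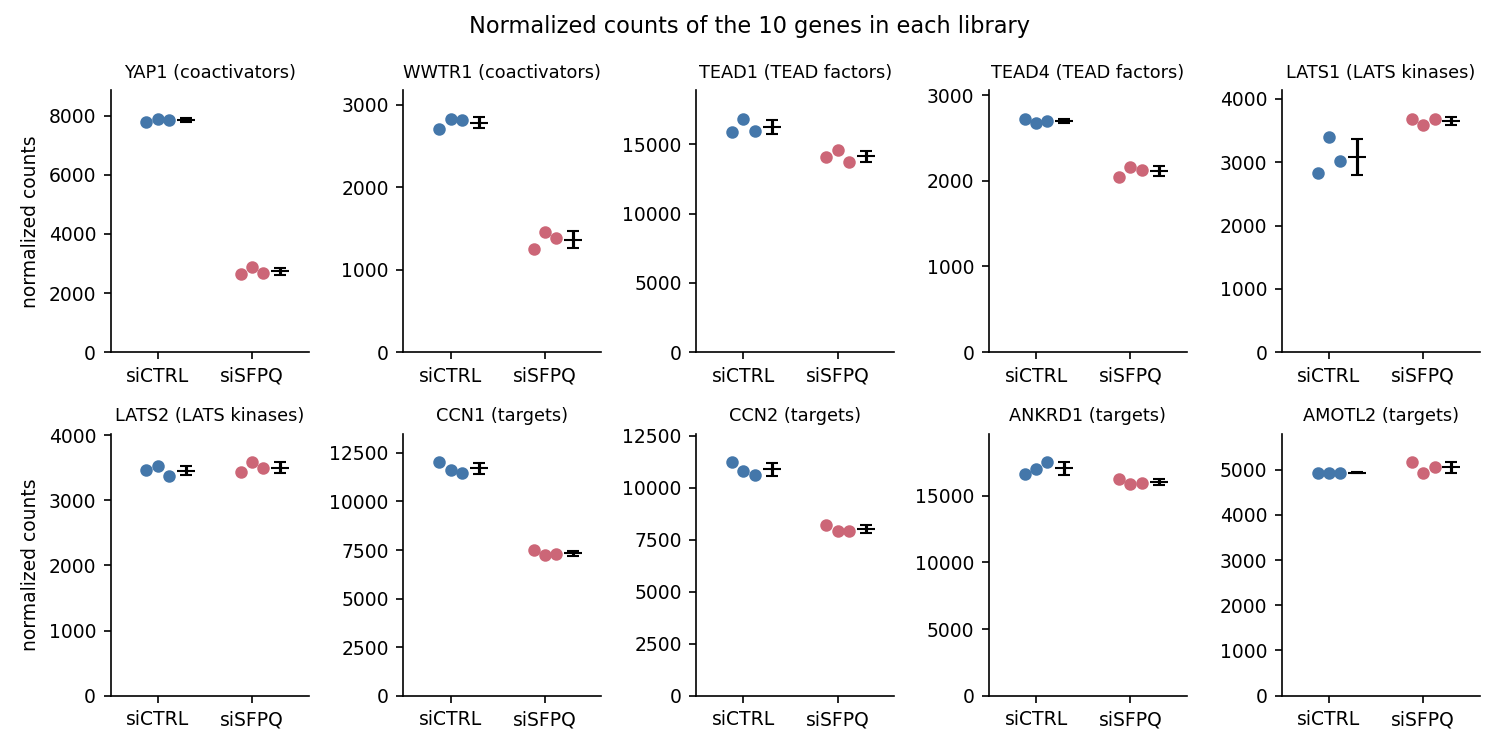
Normalized counts (vertical axes, each from 0) of the 10 genes in each library, with points for single libraries and bars for the mean and SD of 3 libraries per group. The groups are far apart for YAP1 and WWTR1, clearly apart for CCN1 and CCN2, and overlap for LATS2 and AMOTL2.

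YAP1, the main coactivator of the pathway (ENSG00000137693, chromosome 11, 102110447 to 102233424), had 7768, 7906 and 7852 counts in siCTRL replicates 1, 2 and 3, against 2576, 2934 and 2726 in the siSFPQ replicates of those numbers. Every siSFPQ library was thus far below every siCTRL library. Normalized counts fell from 7854 ± 63.7 to 2739 ± 116 (SD, n = 3 each), which left 34.9% of the siCTRL level. The log2 fold change was -1.52 (SE 0.041, 95% interval -1.60 to -1.44, adjusted p = 2.19e-25 by edgeR). The interval includes -1.5, and the estimate was -1.48 without siSFPQ replicate 1, -1.496 without siSFPQ replicate 3 and -1.46 with library size alone, so the passing of the fold threshold rested on these choices, while the fall kept its call in all 12 alternatives. In RNA of whole cultures, fewer cells with a transcript and less of it per cell cannot be told apart.

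WWTR1 (ENSG00000018408, chromosome 3, 149517235 to 149736714), which encodes the paralog TAZ, had 2699, 2833 and 2805 counts in siCTRL, against 1211, 1484 and 1403 in siSFPQ. Again the groups did not overlap, and siSFPQ replicate 1 was the lowest library for both coactivators. Normalized counts fell from 2783 ± 69.2 to 1362 ± 103 (SD, n = 3 each), to 48.9% of siCTRL. The change was -1.03 on the log2 scale (SE 0.052, adjusted p = 1.04e-17 by edgeR), and lay between -1.09 and -0.96 with each library left out in turn.

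The fall was estimated as larger for YAP1 than for its paralog. The log2 ratio of YAP1 to WWTR1 counts, which does not depend on the scaling of a library, was 1.52, 1.48 and 1.48 in the siCTRL libraries and 1.09, 0.983 and 0.958 in the siSFPQ libraries. The mean ratio was therefore lower by 0.49 on the log2 scale in siSFPQ (-0.487), and the groups did not overlap. The exact two-sided permutation test gave p = 0.1, the smallest p that 3 against 3 libraries allow, so the design could not reach 0.05 for any ratio of this kind, and p = 0.1 after adjustment over the 4 paralog pairs compared. Measured per length, YAP1 was the more abundant of the pair, at 107 ± 1.35 TPM against 28.7 ± 0.712 TPM for WWTR1 in siCTRL (SD, n = 3 each). In siSFPQ the levels were 36.8 ± 2.18 and 13.8 ± 1.29 TPM. The summed level of both coactivators fell from 136 ± 1.94 to 50.6 ± 3.40 TPM, and the share of YAP1 in this sum was 78.9% in siCTRL and 72.7% in siSFPQ.

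Few counts were assigned to genes that overlap the coactivators. The antisense gene WWTR1-AS1 had 10 to 31 counts in a library, at most 1.65% of the WWTR1 count, and ENSG00000277459, antisense to YAP1, had 22 to 71 counts, at most 1.09% of the YAP1 count. The processed pseudogene YAP1P1, whose sequence is near that of YAP1, had 0 counts in each siCTRL library and 10, 10 and 1 in siSFPQ, at most 0.388% of the YAP1 count. The strand setting of the counting was not given in the sources used here, so these shares describe the deposited rows only. They do not show how reads on shared exons were assigned.

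The TEAD factors bring YAP and TAZ to DNA. TEAD1 (ENSG00000187079, chromosome 11, 12674421 to 12944737) had 15883, 16849 and 15932 counts in siCTRL and 13640, 14870 and 13939 counts in siSFPQ. The groups did not overlap, but the siSFPQ mean remained at 86.9% of siCTRL, a change of -0.20 on the log2 scale (SE 0.037, adjusted p = 2.51e-05 by edgeR). TEAD4 (ENSG00000197905, chromosome 12, 2959330 to 3040676) had 2722, 2676 and 2686 counts in siCTRL and 1984, 2206 and 2161 counts in siSFPQ. It fell to 78.3% of siCTRL, by 0.35 on the log2 scale (SE 0.045, adjusted p = 4.88e-08 by edgeR). The log2 ratio of TEAD1 to TEAD4 counts ranged from 2.54 to 2.65 in siCTRL and from 2.69 to 2.78 in siSFPQ. This difference of 0.152 was small, and the exact permutation test again gave p = 0.1, the smallest possible.

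The other TEAD genes moved the opposite way. TEAD3 rose by 0.36 on the log2 scale (SE 0.044, adjusted p = 2.94e-08 by edgeR), and TEAD2 by 0.12 (SE 0.049, adjusted p = 0.0431 by edgeR), close to the threshold. Per length, the 4 TEAD transcripts together amounted to 363 ± 8.44 TPM in siCTRL and 344 ± 12.4 TPM in siSFPQ (SD, n = 3 each). TEAD1 made up 36.0% of this sum in siCTRL and 32.6% in siSFPQ, and TEAD4 28.1% and 22.9%, whereas TEAD3 went from 19.8% to 26.4% and TEAD2 from 16.0% to 18.2%. TEAD2 and TEAD3 were taken from the wider list of pathway genes and were named after their values were seen.

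LATS1 and LATS2 are the kinases that phosphorylate YAP and TAZ directly. LATS1 (ENSG00000131023, chromosome 6, 149658153 to 149718105) had 2823, 3394 and 3014 counts in siCTRL and 3577, 3663 and 3736 counts in siSFPQ. Each siSFPQ library was above each siCTRL library, although the siCTRL libraries themselves were spread widely, from the lowest in replicate 1 to the highest in replicate 2. Normalized counts rose from 3082 ± 287 to 3653 ± 59.4 (SD, n = 3 each). The log2 fold change of 0.25 (SE 0.049, adjusted p = 8.69e-05 by edgeR) ranged from 0.19 to 0.32 with single libraries left out.

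LATS2 (ENSG00000150457, chromosome 13, 20973036 to 21061586) had 3465, 3518 and 3369 counts in siCTRL and 3323, 3665 and 3538 counts in siSFPQ, and the groups overlapped. Its log2 fold change was 0.02 with a 95% interval from -0.06 to 0.10 (adjusted p = 0.76 by edgeR). The log2 ratio of LATS1 to LATS2 counts ranged from -0.296 to -0.0518 in siCTRL and from -0.000787 to 0.106 in siSFPQ, with a difference of 0.231 (exact permutation p = 0.1). Per length, LATS2 was the more abundant kinase, at 53.1 ± 1.64 TPM against 31.3 ± 3.05 TPM for LATS1 in siCTRL.

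Of the 4 target genes, CCN1, CCN2 and ANKRD1 were lower and AMOTL2 did not pass the test. CCN1 (ENSG00000142871, chromosome 1, 85580761 to 85584589), a secreted matricellular protein of adhesion and angiogenesis, had 12009, 11634 and 11430 counts in siCTRL and 7264, 7382 and 7392 counts in siSFPQ. With no overlap between the groups, it fell to 62.7% of siCTRL, or -0.67 on the log2 scale (SE 0.037, adjusted p = 8.3e-17 by edgeR). CCN2 (ENSG00000118523, chromosome 6, 131948176 to 131951372), the related connective tissue growth factor, had 11219, 10789 and 10597 counts in siCTRL and 7982, 8094 and 8009 counts in siSFPQ. It fell to 73.7% of siCTRL, by 0.44 on the log2 scale (SE 0.037, adjusted p = 5.99e-12 by edgeR), and here too every siSFPQ library was below every siCTRL library. The estimated fall was larger for CCN1 than for CCN2. The log2 ratio of their counts was 0.0982, 0.109 and 0.109 in siCTRL and -0.136, -0.133 and -0.116 in siSFPQ, so the order of the raw counts turned over, with a difference of -0.234 (exact permutation p = 0.1, the smallest possible).

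ANKRD1 (ENSG00000148677, chromosome 10, 90912096 to 90921087), a nuclear and sarcomeric ankyrin repeat protein that serves as a standard reporter of YAP activity, had 16574, 17025 and 17488 counts in siCTRL and 15779, 16238 and 16189 counts in siSFPQ. The siSFPQ libraries were all below the siCTRL libraries but only slightly, at 94.1% of the siCTRL mean. The log2 fold change of -0.09 (SE 0.036, adjusted p = 0.0428 by edgeR) was barely past the threshold. The call was lost in 5 of the 12 alternatives run for it, with an adjusted p between 0.0667 and 0.134 when siCTRL replicate 2, siCTRL replicate 3, siSFPQ replicate 1 or siSFPQ replicate 3 was left out, and 0.59 with library size alone. AMOTL2 (ENSG00000114019, chromosome 3, 134355347 to 134375479), an angiomotin that holds YAP at junctions, had 4927, 4937 and 4910 counts in siCTRL and 5013, 5042 and 5135 counts in siSFPQ. After normalization the groups overlapped, and the log2 fold change was 0.04 with a 95% interval from -0.04 to 0.11 (adjusted p = 0.497 by edgeR), while with library size alone it was 0.10 with an adjusted p of 0.029.

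**Figure D2:**
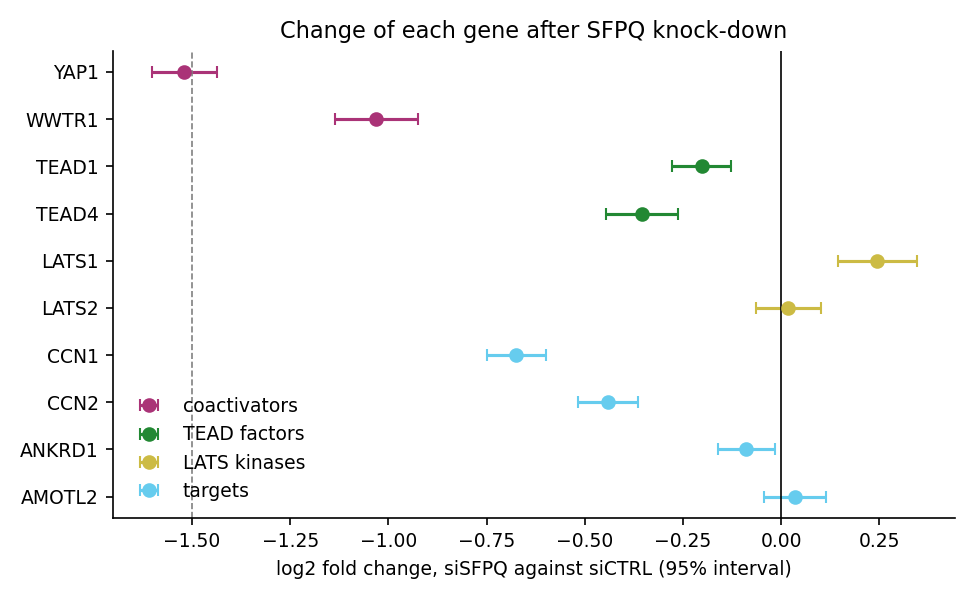
Log2 fold change of siSFPQ against siCTRL (horizontal axis) with its 95% interval for each of the 10 genes, coloured by role, with a dashed line at -1.5. YAP1 lies on the dashed line, WWTR1 near -1.03, and the intervals of LATS2 and AMOTL2 include 0.

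The promoter sequences bear on the targets because TEAD factors recognize the letters GGAATG. RefSeq promoter windows on GRCh38.p14, from 250 bases before to 50 bases after the start of a gene, were matched by symbol for 7 of the 10 genes and not for TEAD1, TEAD4 and CCN1. GGAATG was searched on both strands, as GGAATG or as CATTCC. It was found in 4 of the 7 windows, compared with 11.7% of the 15843 windows of protein-coding genes. The 10 genes were chosen as known members and targets of this pathway. A share above that of all windows is therefore not independent evidence. CCN2 held 3 copies, and 0.114% of all windows held at least 3. ANKRD1 held 2, and 0.978% of all windows held at least 2. YAP1 and LATS2 held 1 copy each, that of LATS2 at base 10 after the start, and the windows of WWTR1, LATS1 and AMOTL2 held none. The windows of WWTR1 and LATS1 begin at starts that lie 33441 and 1680 bases inside the gene span used for the counts. The 250 bases before the start of CCN2, ANKRD1 and YAP1 are given 5′ to 3′ along each gene's own strand, with GGAATG in capitals, to show the genes where copies lie upstream.
CCN2 (chr6:131951373-131951622, minus strand): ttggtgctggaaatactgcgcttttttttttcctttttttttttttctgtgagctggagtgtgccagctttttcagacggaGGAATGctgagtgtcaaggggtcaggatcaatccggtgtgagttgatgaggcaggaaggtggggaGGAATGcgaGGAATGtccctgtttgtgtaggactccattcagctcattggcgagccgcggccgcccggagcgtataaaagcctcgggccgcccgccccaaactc
ANKRD1 (chr10:90921088-90921337, minus strand): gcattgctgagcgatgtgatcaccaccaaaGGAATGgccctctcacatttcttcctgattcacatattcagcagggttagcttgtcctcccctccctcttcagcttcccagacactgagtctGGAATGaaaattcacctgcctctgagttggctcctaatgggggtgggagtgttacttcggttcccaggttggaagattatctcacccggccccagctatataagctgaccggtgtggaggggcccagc
YAP1 (chr11:102110197-102110446, plus strand): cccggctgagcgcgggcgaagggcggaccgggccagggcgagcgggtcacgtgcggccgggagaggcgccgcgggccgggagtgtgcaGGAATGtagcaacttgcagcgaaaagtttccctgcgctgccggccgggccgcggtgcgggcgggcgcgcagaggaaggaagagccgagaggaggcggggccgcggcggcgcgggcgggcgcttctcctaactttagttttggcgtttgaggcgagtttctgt

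The copies upstream of CCN2 begin 169, 104 and 95 bases before the start, and those of ANKRD1 220 and 128 bases before it. The YAP1 window holds its single copy 162 bases before the start. Of the 17 further target genes described below, 12 had a window and 4 of these held the letters. NUAK2 held 2 copies and had a log2 fold change of 0.78, and FOXF2 held 1 and had 0.21. PTPN14 and TGFB2 held 1 each and had -1.06 and -0.39, so genes with copies were found in both directions. RBMS3, at -3.77, had no copy in its window, which lies at a start 706280 bases inside the gene span used for the counts. The window of PTPN14 lies at a start 847 bases inside its span. A match of letters is a description of the sequence and does not show that a TEAD factor binds there in these cells.

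Levels per length set the genes side by side. In siCTRL, ANKRD1 was the most abundant at 821 ± 16.0 TPM, followed by CCN2 at 401 ± 14.6, CCN1 at 273 ± 8.90, TEAD1 at 131 ± 5.14, YAP1 at 107 ± 1.35, TEAD4 at 102 ± 1.5, AMOTL2 at 65.6 ± 0.795, LATS2 at 53.1 ± 1.64, LATS1 at 31.3 ± 3.05 and WWTR1 at 28.7 ± 0.712 TPM (SD, n = 3 each). Neighbours in this order were separated beyond the libraries' range apart from LATS1 and WWTR1, which overlapped. With the longest transcript in place of all merged exons as the length, TEAD4 at 101 TPM came before YAP1 at 92.7 TPM and WWTR1 at 35.2 TPM before LATS1 at 26.7 TPM, so the order of these pairs depends on the length used. In siSFPQ, YAP1 stood at 36.8 ± 2.18 TPM and LATS1 at 36.4 ± 0.345 TPM, and YAP1 thus moved from a level next to TEAD4 to that of LATS1.

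**Figure D3:**
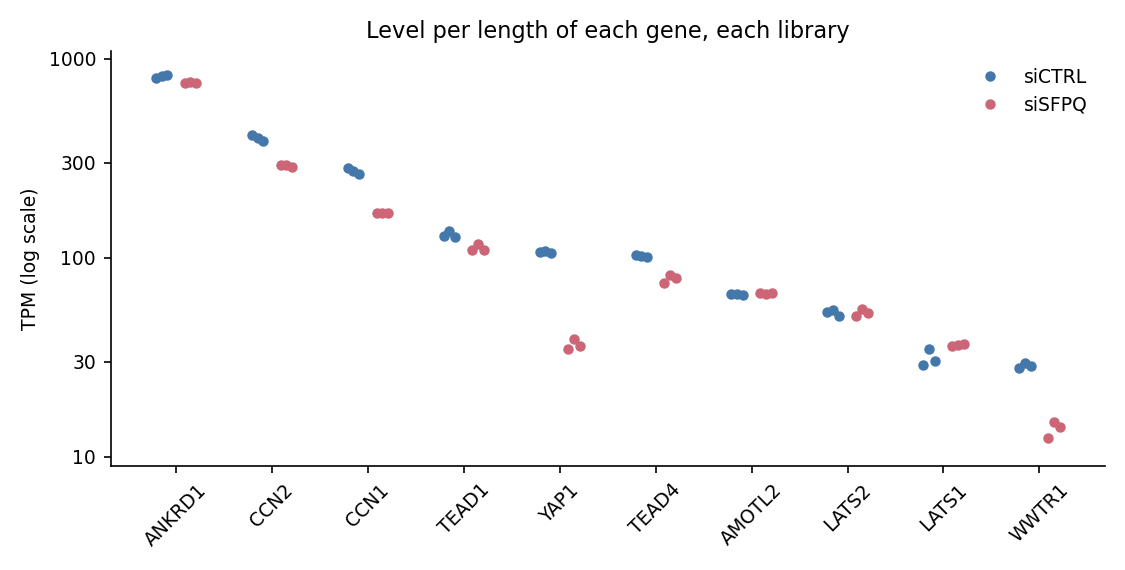
Level per length in TPM (vertical axis, log scale) of the 10 genes in each library, ordered by the siCTRL mean, with 3 points per gene and group. YAP1 drops from the level of TEAD4 to that of LATS1, and ANKRD1 stays the highest in both groups.

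The members differed widely in gene span. The span runs from the start to the end of a gene with introns included, and ranged from 3.20 kb for CCN2 to 270 kb for TEAD1. Protein-coding genes with a mean of at least 1 CPM had a median log2 fold change of 0.05 under 10 kb (2296 genes), 0.05 from 10 to 50 kb (5523 genes), -0.03 from 50 to 100 kb (2334 genes), -0.19 from 100 to 200 kb (1693 genes) and -0.82 over 200 kb (1115 genes). In the longest class, 77.6% were lower at an adjusted p under 0.05. The spans of these genes thus went with their changes, and the part of span in the members' values was not tested.

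The 3 members of 100 kb or more, YAP1, WWTR1 and TEAD1, were all lower. YAP1, with a span of 123 kb, was low in its class, where 8.39% of genes had a lower log2 fold change. WWTR1, with 219 kb, lay near the middle of its class, with 43.1% of genes lower, and TEAD1, with 270 kb, lay well above the median, with 75.5% lower. Among the short members, CCN1 with 3.83 kb and CCN2 with 3.20 kb lay low in their class, with 4.09% and 8.41% of genes under 10 kb lower than they were. ANKRD1 with 8.99 kb and AMOTL2 with 20.1 kb lay within the bulk of their classes, with 32.5% and 48.7% of genes lower. TEAD4, LATS1 and LATS2, all of 50 to 100 kb, had 20.8%, 76.1% and 55.4% of their class below them.

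**Figure D4:**
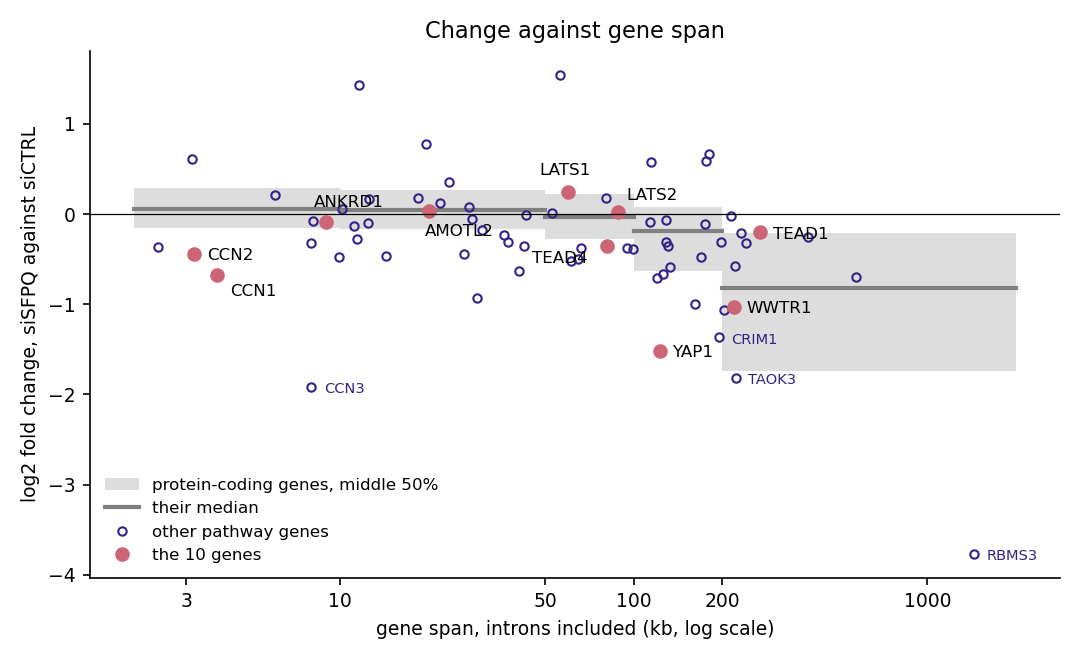
Log2 fold change (vertical axis) against gene span in kb (horizontal axis, log scale) for the 10 genes and the other pathway genes with at least 1 CPM, over the median and middle 50% of protein-coding genes in 5 span classes. YAP1, TEAD4, CCN1 and CCN2 lie below the middle 50% of their class, TEAD1 and LATS1 just above it, and the other 4 genes inside it.

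The rest of the pathway was followed with 65 further genes in lists by role, of which 63 were tested. At the same threshold, 39 were lower and 13 were higher, and their median log2 fold change was -0.28, the same as that of the 10 genes to 2 decimals. Of those with at least 1 CPM, 18 of 24 genes of 100 kb or more were lower and 3 higher, and 20 of 36 shorter genes were lower and 9 higher. By class, 8 of 9 genes over 200 kb were lower, beside 77.6% of all protein-coding genes of that span, and 10 of 15 from 100 to 200 kb, beside 54.8%. Among the shorter ones, 5 of 8 from 50 to 100 kb were lower, beside 38.1%, 11 of 21 from 10 to 50 kb, beside 27.5%, and 4 of 7 under 10 kb, beside 22.9%. In the same order of classes, 0 of 9, 3 of 15, 2 of 8, 5 of 21 and 2 of 7 were higher. The shares of all protein-coding genes that were higher were 10.9%, 19.6%, 31.2%, 37.5% and 35.3%. These class shares cover all genes with at least 1 CPM, while most of the listed genes were above 10 CPM. The test is more sensitive for such abundant genes, so the classes are no matched background. The counts of the lists that follow stand beside the 38.8% lower and 31.4% higher among all genes with at least 10 CPM. Some lists also hold genes under 10 CPM, and among all genes tested 22.1% were lower and 22.4% were higher. With so few genes a list, nothing particular to a list is read from these counts.

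Of the 14 kinases, scaffolds and activators upstream of LATS1 and LATS2, 11 were lower and 2 were higher, with a median log2 fold change of -0.35. TAOK3 and TAOK1, which activate STK3 and STK4, had the largest changes, while the third kinase of this family, TAOK2, rose to 113.4% of siCTRL (adjusted p = 0.00039 by edgeR). The other higher gene was WWC1, with a log2 fold change of 0.67 (adjusted p = 7.15e-14 by edgeR). STK3 fell to 61.9% of siCTRL (adjusted p = 8.22e-11 by edgeR) and STK4 to 93.7% (adjusted p = 0.0462 by edgeR). TAOK3 fell from 673 ± 44.4 to 191 ± 8.66 normalized counts (log2 fold change -1.81, SE 0.094, adjusted p = 1.72e-17 by edgeR), and TAOK1 from 10985 ± 566 to 5490 ± 338 (49.98% of siCTRL, adjusted p = 1.37e-19 by edgeR). Of the 10 STRIPAK subunits and LIM proteins that restrain the kinases, 6 were lower and 0 higher (median -0.16), with STRN3 at a log2 fold change of -0.59 and LIMD1 at -0.36. For the tested partners of YAP, TAZ and TEAD, 4 were lower and 3 higher of 8 (median -0.17), shares near those of all abundant genes. Among them the phosphatase PTPN14, which binds YAP and is also counted among the targets, fell from 12355 ± 831 to 5922 ± 204 normalized counts (log2 fold change -1.06, adjusted p = 1.65e-20 by edgeR), and the TEAD cofactor VGLL3 rose from 2755 ± 164 to 4104 ± 94.4 (log2 fold change 0.57, adjusted p = 6.86e-13 by edgeR). VGLL1 had 0 counts in every library. STK3 (log2 fold change -0.69), TAOK3 and PTPN14 span 572, 223 and 204 kb. Their class, over 200 kb, had a median of -0.82. From 100 to 200 kb, where the median was -0.19, lay TAOK1, STRN3, LIMD1 and STK4, which were lower. WWC1 and VGLL3, which were higher, lay there too. The part of span in these changes was not tested.

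The targets beyond CCN1, CCN2, ANKRD1, AMOTL2 and LATS2 were taken from a widely used YAP/TAZ target signature, of which 17 further genes were tested. Of these, 10 were lower and 4 were higher, with a median log2 fold change of -0.26. The largest fall among those with at least 1 CPM was that of RBMS3, an RNA-binding protein gene with a span of 1440 kb, from 1174 ± 76.0 to 86.0 ± 11.6 normalized counts (log2 fold change -3.77, SE 0.10, adjusted p = 1.73e-25 by edgeR). CRIM1, a transmembrane regulator of BMP signalling with a span of 195 kb, fell from 10634 ± 187 to 4119 ± 158 (log2 fold change -1.37, adjusted p = 1.29e-24 by edgeR). IGFBP3 was counted as lower on very few reads, with 0, 8 and 5 counts in siCTRL and 0 in each siSFPQ library, so that its groups overlapped. The 4 higher genes, named after their values were seen, were NUAK2 (0.78 on the log2 scale), GADD45A (0.62), MYOF (0.58) and FOXF2 (0.21). GADD45A is a stress-response gene that also answers to p53, and MYOF encodes a membrane-repair protein.

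CCN1, CCN2 and ANKRD1 are also driven by SRF and its MRTF coactivators, which respond to actin. Of 12 cytoskeletal SRF targets, 7 were lower and 3 were higher (median log2 fold change -0.21). The smooth muscle genes of the list did not move together. ACTA2 and CNN1 rose, with log2 fold changes of 1.54 (SE 0.118, adjusted p = 4.27e-13 by edgeR) and 1.44 (SE 0.064, adjusted p = 2.64e-19 by edgeR). TPM1, a tropomyosin, fell to 52.4% of siCTRL (adjusted p = 6.37e-21 by edgeR) and MYL9, a myosin light chain, to 71.9% (adjusted p = 1.47e-12 by edgeR), while TAGLN had a log2 fold change of -0.08 (adjusted p = 0.438 by edgeR) and overlapping groups. TAOK2, WWC1, STK3, STK4, TGFB2, TPM1, MYL9 and TAGLN were named after their values were seen. ACTA2 belongs to a signature that the study chose on these libraries, so its direction is not independent evidence. Within the CCN family, CCN3 fell from 11073 ± 232 to 2936 ± 95.2 normalized counts (log2 fold change -1.92, adjusted p = 2.03e-28 by edgeR), a difference from CCN1 and CCN2 that was not tested, and CCN4 fell by 0.63 on the log2 scale (adjusted p = 5.59e-05 by edgeR). CCN5 was higher at very low counts, with 5 to 14 in siCTRL and 57 to 86 in siSFPQ, and CCN6 was at 2 counts or fewer in every library.

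**Figure D5:**
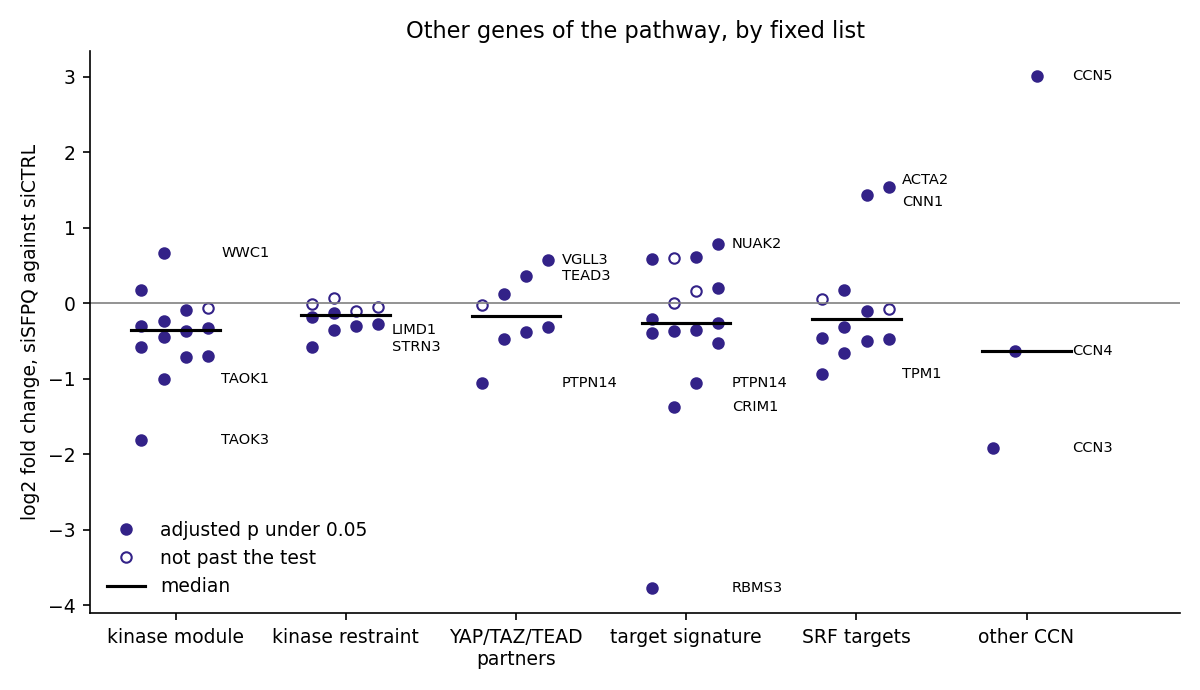
Log2 fold change (vertical axis) of the other pathway genes in 6 lists, with filled points past an adjusted p of 0.05, open points not past it, and a line at each list's median; IGFBP3, at 0 counts in siSFPQ, is not drawn. RBMS3, TAOK3 and CCN3 are the lowest points drawn and CCN5, at few counts, the highest.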

How the data were processed

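The data were RNA-seq counts of 3 siCTRL and 3 siSFPQ libraries of U-2 OS cells, grouped by their titles, with 0 columns left unused. Per the paper's methods, the authors aligned reads of stranded mRNA libraries with STAR 2.7.9a to GRCh38 from Ensembl and deposited unnormalized counts for each Ensembl gene. The strand setting of the counting is not given in the sources used here.

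Genes with at least 10 counts in total entered a quasi-likelihood fit without covariates after TMM scaling (edgeR 4.0.16, R 4.3.3), and p-values were Benjamini-Hochberg adjusted over 29022 genes. Standard errors and 95% intervals came from the log2 fold change and its F statistic. Normalized counts are counts divided by the TMM effective library size and multiplied by the geometric mean of these sizes. TPM values used merged exon lengths from GENCODE release 44 on GRCh38, which named 99.67% of the 60664 identifiers. Paralogs were compared by the log2 ratio of their counts, 0.5 added to each, with exact two-sided permutation tests that cannot go below p = 0.1. Counts are of reads, not molecules, and 3 counts corresponded to 0.0637 to 0.069 CPM.

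Besides the 10 genes, SFPQ and the genes with an absolute log2 fold change over 1 in each list (at most 5 per direction, or otherwise the 2 largest changes, at 1 CPM or more) were named. The 10 genes and all lists were chosen with earlier results of these data known. Scripts were tested on simulated counts of 28126 genes, with 100 changed by 1 and 100 changed by 2 on the log2 scale. Of these, edgeR called 96 and 100 in the right direction, and it called 12 of the unchanged genes. Far fewer genes changed in the simulation than passed in the data, so the scaling under such wide change was not tested. Squared differences between replicates of a group were 3.77 to 5.49 times those of sampling noise, so the replicates were no repeats of a library. These values do not tell separate cultures from separate preparations of the same RNA. The alternatives were another count filter or none, RLE or library-size scaling, DESeq2 1.42.0, the replicate number as a block, other thresholds, constants and lengths, and each library left out. The background of genes with at least 10 CPM and the split of the lists at 100 kb were added after seeing the data.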

Additional observations from a re-analysis of the deposited data

How the results depend on the processing

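The number of the 10 genes past a log2 fold change of 1.5 was 1 with TMM and 0 with library size alone, between 0 and 1 with single libraries left out (0 without siSFPQ replicate 1 or siSFPQ replicate 3), and 2 with a threshold of 1, which adds WWTR1. The number higher at an adjusted p under 0.05 was 2 with library size alone, where AMOTL2 passed. LATS2, which passed in no alternative, changed sign to -0.014 without siSFPQ replicate 2 and lay between -0.014 and 0.048 with single libraries left out. The cause of these changes was not tested. Over the 120 refits of single members, 113 kept the direction and the side of the threshold, 5 lost the call, all of them of ANKRD1, 1 gained it and 1 changed sign. All 156 refits of SFPQ and the 12 other genes named by the rule kept both. The difference between YAP1 and WWTR1 lay between -0.526 and -0.461 with single libraries left out, and those of TEAD1 and TEAD4 between 0.13 and 0.185, LATS1 and LATS2 between 0.168 and 0.289, and CCN1 and CCN2 between -0.24 and -0.23.

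The replicate numbers are not stated to pair the libraries. The deviations of same-numbered libraries from their group means correlated at -0.0248 to 0.0705 over genes, and those of different numbers at -0.0718 to 0.0357. With the replicate block, 7 of the 10 genes were lower, 1 was higher and 1 was past 1.5, and no member's call changed.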
